A study of Mus musculus with 21 samples.

Results

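Nfil3, Ikzf3, Klf2, Prdm1 and Ehf are 5 transcription factors named for parting AGF+ cells, which carry the fluorescent signal of an Aire reporter allele, from other dendritic cells. They are 5 of the 55471 genes in the count table, and all 5 were found there. They were picked from their levels in these same libraries, so the differences between AGF+ cells and the other sorts, and between the tissues, are given as a description with no test. Ikzf3, Klf2 and Ehf were lower in lymph node AGF+ cells than in AGF− cells in both genotypes, and Prdm1 was lower without overlap in KI/+ mice. Nfil3 was lower without overlap in AireKO lymph node AGF+ cells, overlapped between the sorts in KI/+ lymph node and in bone marrow, and differed most by tissue. In bone marrow Ikzf3 ran the other way, with more of it in AGF+ cells, at levels near the detection limit.

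RNA of sorted mouse cells was sequenced in 7 groups of 3 libraries, described in the labels as independent biological replicates. In the order used here they are lymph node AGF+ cells of AireKO and of KI/+ mice, lymph node AGF− cells of AireKO and of KI/+ mice, bone marrow AGF+ cells of AireKO and of KI/+ mice, and bone marrow total DC of KI/+ mice. KI/+ mice have the genotype AGF-KI/+ and AireKO mice the genotype AGF-KI/-, so every mouse, controls included, carried the knocked-in reporter allele. All were recorded as male C57BL/6 mice 6 weeks of age. Lymph node cells came from a CD45+CD11c+MHCII+ gate and were then split by the reporter. Bone marrow AGF+ cells came from a B220−CD24+CD11b−/low gate, whereas the total DC came from a B220−CD11c+MHCII+ gate. Gate and reporter therefore cannot be told apart in bone marrow. The titles call the lymph node groups LNDC and the bone marrow groups BMDC. Any culture of the bone marrow cells could not be told apart from tissue in the comparisons between tissues.

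All 5 proteins bind DNA and set which genes a cell uses. Nfil3 is a basic leucine zipper repressor that competes for the D box with the PAR family of circadian activators, and in mice it is needed for the cDC1 and innate lymphoid lineages. Ikzf3 (Aiolos) is an Ikaros zinc finger protein known from B and T cell differentiation, Klf2 holds lymphocytes in quiescence and drives their trafficking receptors, Prdm1 (Blimp-1) is a repressor known from plasma cells, T cells and dendritic cells, and Ehf is an ETS factor known best from epithelium.

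RefSeq promoter entries were at hand for 3 of the 5 factors. The stretches that lie just before the starts of Klf2, Prdm1 and Nfil3 are printed so that their base composition and their motifs can be read beside the levels that follow. Each covers 210 bases, from 250 to 41 bases before the RefSeq start, in GRCm38.p6, 5′ to 3′ on the strand of the gene. They are Klf2 at chr8:72318812-72319021 on the + strand, Prdm1 at chr10:44458789-44458998 on the − strand and Nfil3 at chr13:52981080-52981289 on the − strand. Capitals mark the motifs searched on both strands.
Klf2: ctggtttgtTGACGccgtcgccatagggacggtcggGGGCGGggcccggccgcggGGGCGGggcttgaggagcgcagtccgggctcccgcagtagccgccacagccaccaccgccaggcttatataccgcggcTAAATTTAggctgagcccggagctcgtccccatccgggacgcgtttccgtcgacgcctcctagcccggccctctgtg
Prdm1: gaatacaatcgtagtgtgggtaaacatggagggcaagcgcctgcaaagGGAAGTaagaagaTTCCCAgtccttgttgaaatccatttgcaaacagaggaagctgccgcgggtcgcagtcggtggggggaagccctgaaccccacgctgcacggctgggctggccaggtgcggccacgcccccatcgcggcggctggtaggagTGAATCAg
Nfil3: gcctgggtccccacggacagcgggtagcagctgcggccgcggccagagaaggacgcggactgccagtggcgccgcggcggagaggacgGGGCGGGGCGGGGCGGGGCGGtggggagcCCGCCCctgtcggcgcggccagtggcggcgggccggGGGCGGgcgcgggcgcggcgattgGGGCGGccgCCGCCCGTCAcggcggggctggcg

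The Nfil3 stretch was 84.3% G or C and held 8 GC boxes (GGGCGG), the element of Sp and KLF proteins, 4 of which follow each other and share a base with the next. The Klf2 stretch was 70.5% G or C, with 2 GC boxes and, from 117 to 110 bases before the start, the MEF2 core TAAATTTA. The Prdm1 stretch was 60.0% G or C and held TGGGAA (the Ikaros core), GGAAGT (the ETS core) and an AP-1 element, TGANTCA, from 48 to 42 bases before the start. The RefSeq start behind it lies 69753 bases inside the outermost end that GENCODE gives the gene, and no annotated exon overlaps the stretch. The CRE core TGACG stood in the Klf2 and Nfil3 stretches, and in that of Nfil3 it shared a base with the last GC box.

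Across 32851 promoter stretches of the same length, the median content of G or C was 51.9%. Of these stretches, 26.7% held a GC box, 0.429% the MEF2 core, 5.84% the AP-1 element, 18.6% TGGGAA, 15.6% GGAAGT and 14% TGACG. None of the 3 stretches held CACCC, which 46.2% of all stretches did, the D box TTATGTAA (0.709%), the E box CACGTG (4.65%) or TATAAA (9.56%). A match or its lack describes these letters and nothing else.

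Total counts per library lay between 4164451 and 6055097, and a count of 0 allowed up to 0.458 to 0.767 CPM (counts scaled to library size, here 3 counts of the library). These limits cover counting error only. Aire, the gene of the reporter allele, averaged 25.2 ± 2.10 CPM in AireKO and 114 ± 16.7 CPM in KI/+ lymph node AGF+ cells, and 14.5 ± 4.48 and 101 ± 19.2 CPM in AireKO and KI/+ bone marrow AGF+ cells (SD, n = 3 each). The 7 libraries numbered 2, one in each group, held 2028 to 4008 CPM of Xist and at most 0.769 CPM over 4 Y-linked genes, against 0 to 31.2 CPM of Xist and 331 to 568 CPM of Y-linked genes in the other 14, although every library is labelled male. Results are therefore given with and without them where they move. The dendritic cell genes Zbtb46 and Flt3 averaged at least 135 and 35.9 CPM in every group. In bulk RNA, fewer cells of a type and less RNA per cell cannot be told apart, and this holds for every level below.

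Ikzf3 (ENSMUSG00000018168, chr11:98464902-98546031, − strand) parted the lymph node sorts more than the other 4 factors. AireKO lymph node AGF+ libraries held 4.53, 6.45 and 8.22 CPM, against 160, 124 and 180 CPM in AireKO AGF− libraries. In KI/+ lymph node, AGF+ libraries held 4.27, 8.69 and 9.86 CPM and AGF− libraries 81.9, 102 and 130 CPM. Every AGF+ library lay far below every AGF− library of its genotype. The difference was −4.61 ± 0.29 on the log2 scale (24.4-fold lower) in AireKO and −3.80 ± 0.28 (13.9-fold lower) in KI/+ lymph node (fitted value ± SE, AGF+ over AGF−).

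In bone marrow Ikzf3 was scarce. AireKO AGF+ libraries held 6, 8 and 13 reads (1.13, 1.72 and 3.32 CPM), KI/+ AGF+ libraries 17, 23 and 18 reads (3.48, 4.42 and 3.22 CPM), and KI/+ total DC libraries 0, 7 and 1 reads (0, 1.44 and 0.194 CPM). The KI/+ AGF+ libraries were all above the total DC libraries, by 2.72 ± 0.68 on the log2 scale, a direction opposite to that in lymph node. That size rests on few reads of total DC: it was 4.89 without total DC replicate 2 and 4.76 without the libraries numbered 2. Between tissues, lymph node AGF− cells of KI/+ mice exceeded bone marrow total DC by 7.53 ± 0.46, or by 9.72 without the libraries numbered 2 and 9.69 without total DC replicate 2.

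Klf2 (ENSMUSG00000055148, chr8:72319033-72321656, + strand) was lower in AGF+ cells of both tissues. AireKO lymph node libraries held 3.19, 4.63 and 3.91 CPM in AGF+ cells and 43.3, 32.8 and 38.0 CPM in AGF− cells. KI/+ lymph node libraries held 7.60, 6.41 and 7.01 CPM in AGF+ cells and 25.6, 27.7 and 35.2 CPM in AGF− cells. The sorts did not overlap in either genotype, and the difference of AGF+ from AGF− cells was −3.29 ± 0.21 on the log2 scale in AireKO (9.75-fold lower) and −2.08 ± 0.19 in KI/+ mice (4.21-fold lower). The AireKO value was −3.51 without the libraries numbered 2.

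Bone marrow held little Klf2 in any sort. AireKO AGF+ libraries had 1.13, 2.14 and 2.56 CPM, KI/+ AGF+ libraries 0.614, 1.92 and 1.43 CPM, and KI/+ total DC libraries 3.21, 3.08 and 2.32 CPM. These stood on 3 to 15 reads a library. The KI/+ AGF+ libraries were all below total DC, at −1.08 ± 0.42 on the log2 scale.

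Ehf (ENSMUSG00000012350, chr2:103263433-103303278, − strand) was a lymph node transcript. AireKO libraries held 9.73, 6.65 and 9.05 CPM in AGF+ cells and 24.5, 48.2 and 23.98 CPM in AGF− cells. KI/+ libraries held 19.2, 10.1 and 19.7 CPM in AGF+ cells and 57.0, 59.1 and 66.6 CPM in AGF− cells. The 4 lymph node groups did not overlap, with AireKO AGF+ cells the lowest and KI/+ AGF− cells the highest. The difference of AGF+ from AGF− cells was −1.93 ± 0.31 in AireKO and −1.91 ± 0.29 in KI/+ mice on the log2 scale, 3.80-fold and 3.76-fold lower, and the AireKO value was −1.36 without the libraries numbered 2.

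In bone marrow Ehf did not pass the filter on low counts. AireKO AGF+ libraries held 0, 2 and 0 reads, KI/+ AGF+ libraries 0 in all 3, and total DC libraries 16, 1 and 3 reads. Against the floor of 3 counts over the group, KI/+ AGF+ cells were at least 7.11-fold lower than total DC, a bound that rests on total DC replicate 1. Against the same floor, lymph node AGF+ cells of KI/+ mice exceeded their bone marrow counterparts at least 83.0-fold.

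Prdm1 (ENSMUSG00000038151, chr10:44437177-44528501, − strand) parted the sorts less. KI/+ lymph node libraries held 22.2, 19.7 and 25.0 CPM in AGF+ cells and 59.2, 47.8 and 50.3 CPM in AGF− cells. AireKO lymph node libraries held 15.4, 17.1 and 38.9 CPM in AGF+ cells and 30.5, 35.9 and 58.5 CPM in AGF− cells, and replicate 3 was the highest of both sorts. The difference of AGF+ from AGF− cells was −1.24 ± 0.30 on the log2 scale in KI/+ mice, with no overlap, and −0.82 ± 0.30 in AireKO mice, where the sorts overlapped. Within each AireKO replicate number, Prdm1 was lower in the AGF+ library.

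Bone marrow held more Prdm1 than lymph node. AireKO AGF+ libraries had 106, 76.1 and 86.4 CPM, KI/+ AGF+ libraries 96.2, 64.4 and 74.4 CPM, and total DC libraries 93.0, 77.3 and 89.2 CPM. The sorts overlapped, at −0.13 ± 0.17 for AGF+ cells over total DC. Lymph node AGF+ cells were lower than bone marrow AGF+ cells, at −1.92 ± 0.28 in AireKO and −1.82 ± 0.28 in KI/+ mice on the log2 scale, and the AireKO value was −2.49 without lymph node replicate 3.

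Nfil3 (ENSMUSG00000056749, chr13:52967209-52981073, − strand) differed far more by tissue than by sort. AireKO lymph node libraries held 8.56, 9.06 and 11.9 CPM in AGF+ cells and 14.4, 13.2 and 16.4 CPM in AGF− cells. KI/+ lymph node libraries held 13.9, 11.1 and 14.9 CPM in AGF+ cells and 11.6, 9.72 and 16.5 CPM in AGF− cells. The AireKO sorts did not overlap (−0.58 ± 0.23 on the log2 scale, 1.49-fold lower in AGF+ cells), whereas the KI/+ sorts did (0.07 ± 0.23).

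Bone marrow libraries held 346, 269 and 319 CPM of Nfil3 in AireKO AGF+ cells, 338, 291 and 300.4 CPM in KI/+ AGF+ cells and 365, 241 and 225 CPM in total DC. All 9 lay far above all 12 lymph node libraries, and the 3 groups overlapped. On the log2 scale, lymph node over bone marrow was −4.99 ± 0.22 in AireKO AGF+ cells, −4.55 ± 0.21 in KI/+ AGF+ cells and −4.45 ± 0.21 for AGF− cells over total DC, which is 31.7-fold, 23.3-fold and 21.9-fold lower.

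Markers of other states moved with the tissue too. In KI/+ AGF+ cells, 10 cell cycle genes summed to 155 to 179 CPM in lymph node and 1337 to 2534 CPM in bone marrow, and all 10 were lower in lymph node, where 54.2% of all genes tested passed. All 8 markers of plasmacytoid dendritic cells were lower in lymph node, with sums of 424 to 502 CPM against 1415 to 1580 CPM in bone marrow. Of 15 immediate early genes, 9 rose and 3 fell, with sums of 624 to 814 CPM in lymph node and 262 to 357 CPM in bone marrow. Their part in the tissue differences of the 5 factors was not tested.

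**Figure D1:**
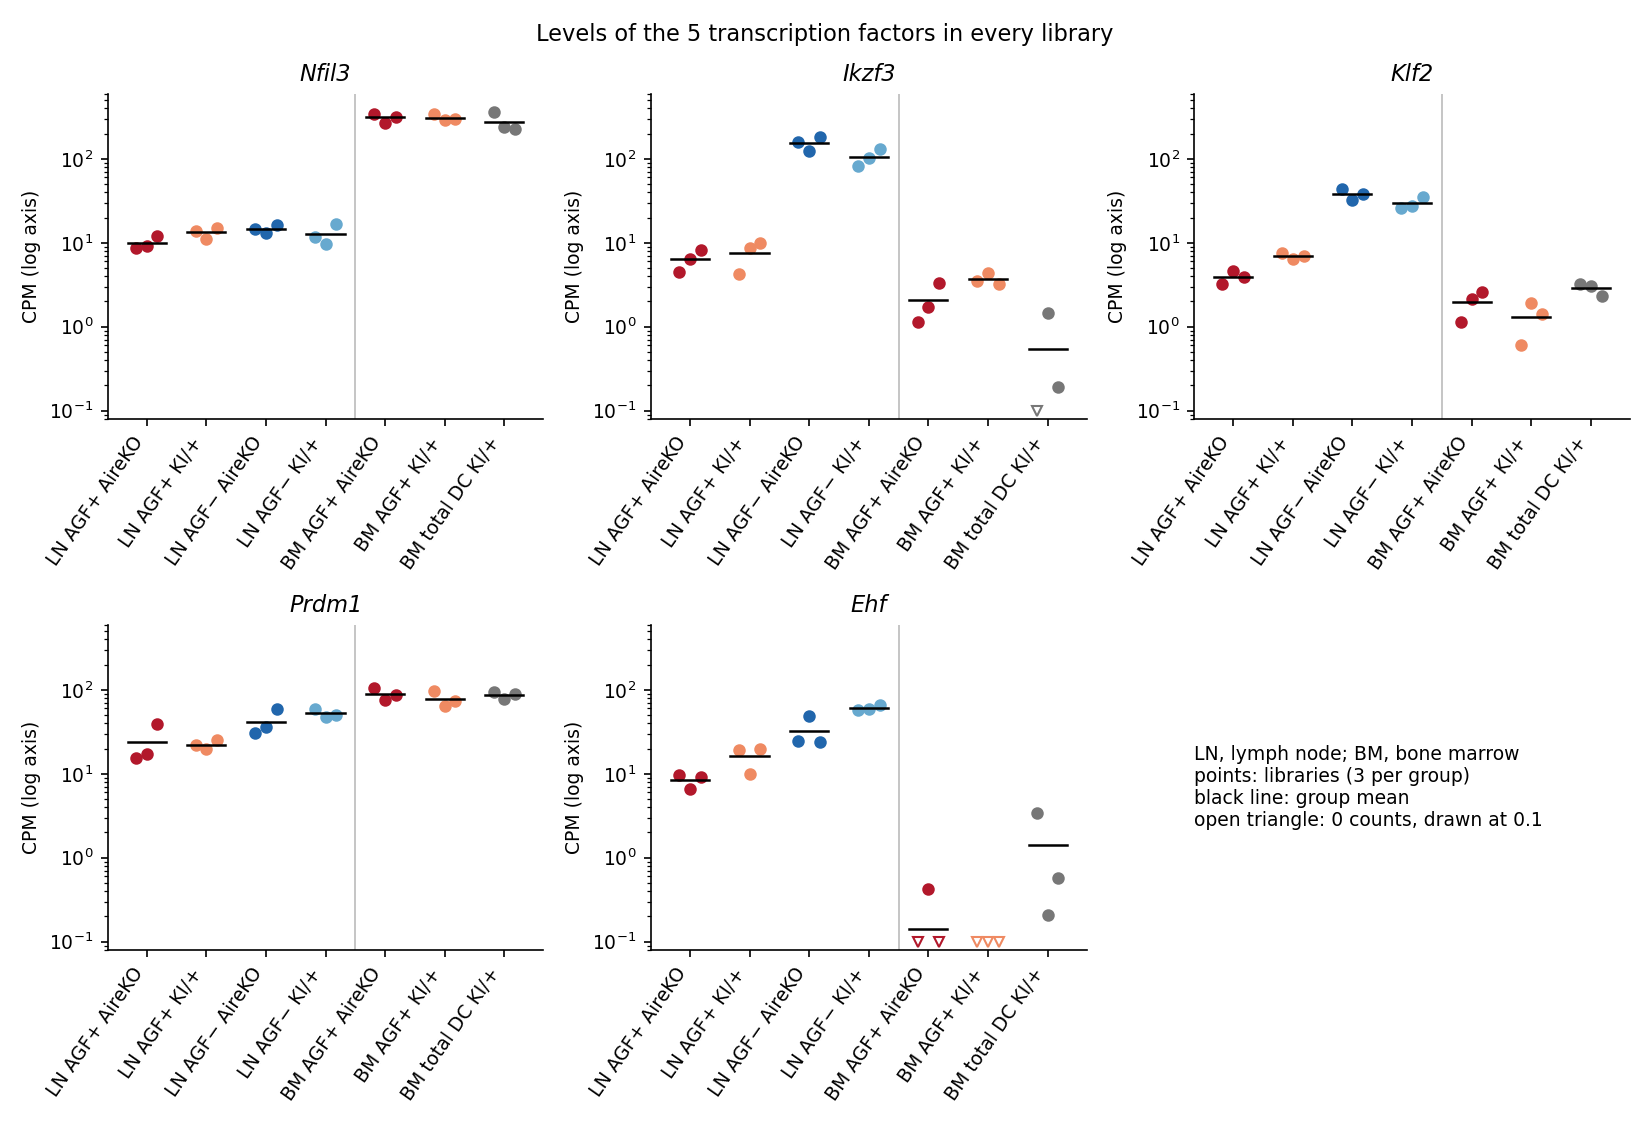
CPM of the 5 factors on a log axis in each of 21 libraries. Points are libraries, black lines group means of 3, and open triangles libraries with 0 counts drawn at 0.1. Ikzf3, Klf2 and Ehf stand highest in lymph node AGF− cells, and Nfil3 is above 225 CPM in every bone marrow library and below 17 CPM in every lymph node library.

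By the order of the group means, neighbouring levels were often indistinguishable. For Ikzf3 the AGF− groups overlapped each other, as did the lymph node AGF+ groups and the neighbouring bone marrow groups. For Klf2 the AGF− groups overlapped, KI/+ lymph node AGF+ cells stood apart, and each remaining group overlapped the next. Prdm1 and Nfil3 overlapped among neighbours within each tissue and not between the tissues.

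The number of the 5 whose libraries did not overlap is fixed in part by how they were chosen. Between the lymph node sorts, 4 of 5 did not overlap in KI/+ mice, where 38.4% of all genes tested did not, and 4 of 5 in AireKO mice, where 39.6% did not. In bone marrow, Ikzf3, Klf2 and Ehf, the last too scarce for the fit, did not overlap, where 51.5% of genes tested did not. Between tissues, 4 of 5 did not overlap for KI/+ AGF+ cells (61.4% of genes tested), 5 of 5 for AireKO AGF+ cells (64.5%) and 5 of 5 for the other sorts (60.0%).

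**Figure D2:**
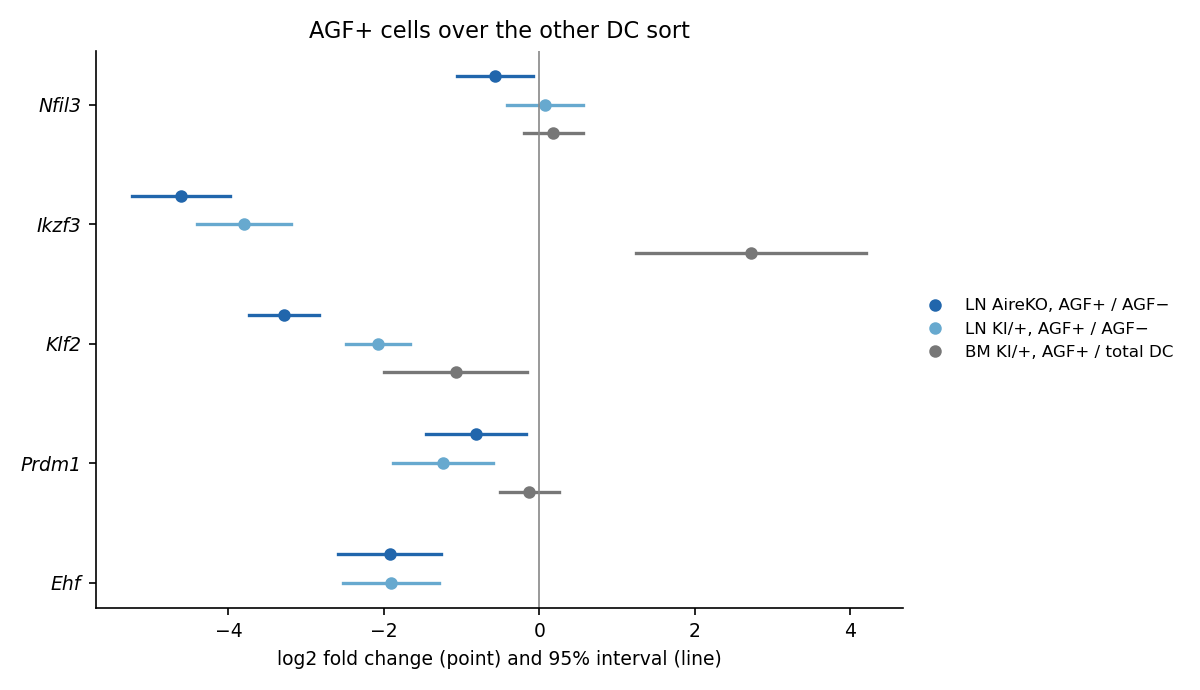
Fitted log2 difference of AGF+ cells over the other sort (points) with 95% intervals (lines), AGF+ over AGF− in AireKO and KI/+ lymph node and AGF+ over total DC in bone marrow. Ikzf3 is at −4.61 and −3.80 in lymph node and at 2.72 in bone marrow, and Ehf has no fitted value in bone marrow.

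Whether loss of Aire moved the 5 factors was tested, since they were named for the sorts, although levels of both genotypes were in view when they were chosen. None of the 5 passed an adjusted p of 0.05 in any cell type by edgeR's quasi-likelihood test with Benjamini-Hochberg adjustment over all genes. DESeq2 and limma voom gave the same count of 0. In the whole table, 2 of 15884 genes (0.0126%) passed in lymph node AGF+ cells, 1 (0.0063%) in lymph node AGF− cells and 2 of 15503 (0.0129%) in bone marrow AGF+ cells. The lymph node counts were 4 and 2 with the replicate number as a block, 7 in AGF+ cells without KI/+ replicate 2 and 89 in AGF− cells without AireKO replicate 2, and the bone marrow count was 1 without the libraries numbered 2. The genes passing were Aire, lower in AireKO AGF+ cells of both tissues, and Dnmt3l, higher in AireKO cells of all 3 kinds and named here after its values were seen.

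Klf2 and Ehf came nearest in lymph node AGF+ cells, where 583 genes (3.67%) had an unadjusted p under 0.05. Klf2 averaged 3.91 ± 0.722 CPM in AireKO and 7.01 ± 0.595 CPM in KI/+ AGF+ cells (SD, n = 3 each). The genotypes did not overlap, with the AireKO libraries lower, and the fitted difference was −0.86 ± 0.23 on the log2 scale (95% interval −1.34 to −0.38). Its unadjusted p was 0.00192 and its adjusted p 0.967 by edgeR, with a range of 0.177 to 1.0 over the alternatives.

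Ehf averaged 8.48 ± 1.62 CPM in AireKO and 16.3 ± 5.42 CPM in KI/+ lymph node AGF+ cells. Its difference was −0.94 ± 0.32 on the log2 scale (−1.62 to −0.26), with no overlap, an unadjusted p of 0.0101 and an adjusted p of 0.967 by edgeR (0.00921 to 1.0 over the alternatives, the lowest with no filter on low counts). Thus 2 of the 5 did not overlap between genotypes in these cells, where 10.3% of genes tested did not. Nfil3, Ikzf3 and Prdm1 overlapped, at −0.45 ± 0.23, −0.26 ± 0.32 and 0.07 ± 0.31.

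In lymph node AGF− cells Ehf again stood lower in AireKO mice, at 32.2 ± 13.8 CPM against 60.9 ± 5.04 CPM in KI/+ mice. The difference was −0.93 ± 0.27 on the log2 scale (−1.51 to −0.34) with no overlap, an unadjusted p of 0.00444 and an adjusted p of 0.798 by edgeR. The adjusted p was 0.000524 with no filter on low counts and 0.0403 without AireKO AGF− replicate 2, the library with 48.2 CPM (difference −1.35), so that the call turned on that library and on the filter. It was 0.0585 without the libraries numbered 2.

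The other 4 overlapped between genotypes in AGF− cells, where 8.96% of genes tested did not. Ikzf3 averaged 155 ± 28.7 CPM in AireKO and 105 ± 24.02 CPM in KI/+ AGF− cells, a difference of 0.55 ± 0.23 with an unadjusted p of 0.0342 and an adjusted p of 0.819 by edgeR. Klf2 differed by 0.35 ± 0.17, Nfil3 by 0.20 ± 0.23 and Prdm1 by −0.35 ± 0.29 on the log2 scale. In these cells 949 genes (5.97%) had an unadjusted p under 0.05.

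In bone marrow AGF+ cells the 4 factors that could be fitted overlapped between genotypes, where 6.7% of genes tested did not. Nfil3 averaged 311 ± 39.5 CPM in AireKO and 309.8 ± 24.4 CPM in KI/+ cells, with a difference of 0.01 ± 0.17 on the log2 scale (−0.37 to 0.39). Prdm1 differed by 0.20 ± 0.17 (−0.18 to 0.58), Klf2 by 0.50 ± 0.45 and Ikzf3 by −0.89 ± 0.54, the last pair from 26 against 21 reads and 27 against 58 reads in AireKO and KI/+ cells. Their adjusted p by edgeR was 0.9998 for all 4, and 259 genes (1.67%) had an unadjusted p under 0.05.

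The effect of genotype was also compared between the tissues. For Klf2 in AGF+ cells, the lymph node difference minus the bone marrow difference was −1.34 ± 0.47 on the log2 scale (−2.31 to −0.37), with an unadjusted p of 0.00925 and an adjusted p of 0.9999 by edgeR. Nfil3 gave −0.44 ± 0.28, Ikzf3 0.66 ± 0.62 and Prdm1 −0.10 ± 0.39. None of 17265 genes (0.0%) passed this test, and 456 (2.64%) had an unadjusted p under 0.05.

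**Figure D3:**
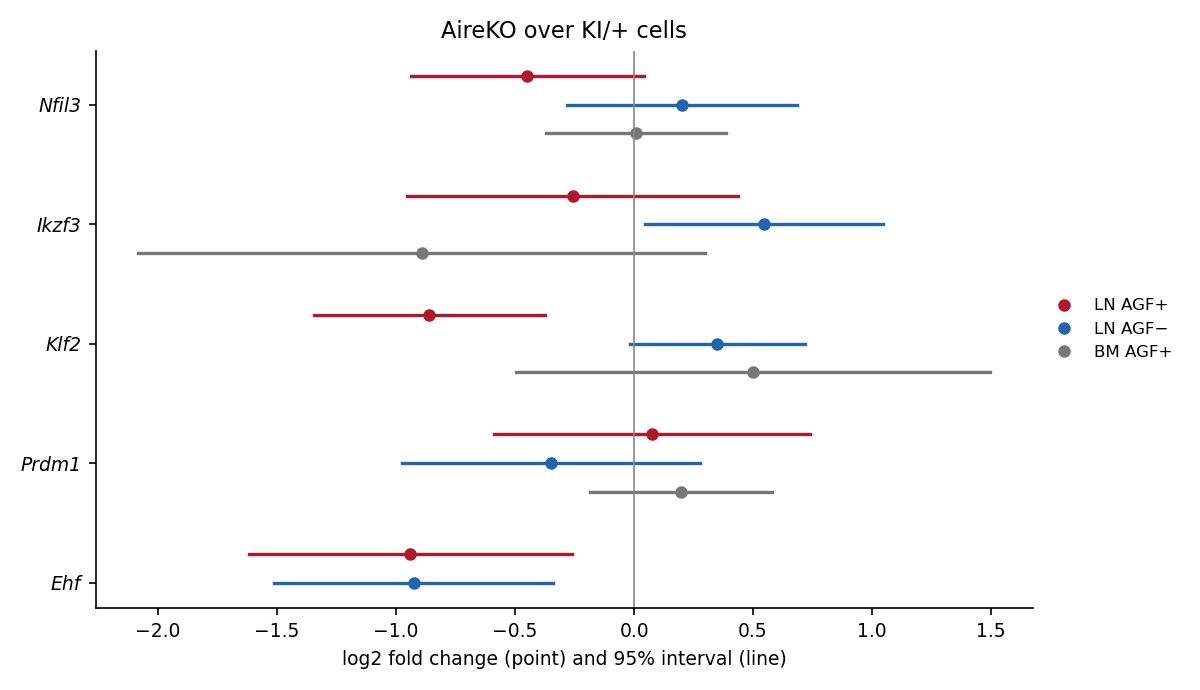
Fitted log2 difference of AireKO over KI/+ cells (points) with 95% intervals (lines) in lymph node AGF+, lymph node AGF− and bone marrow AGF+ cells. Klf2 in lymph node AGF+ cells (−0.86) and Ehf in both lymph node sorts (−0.94 and −0.93) lie left of 0, and no adjusted p passes 0.05.

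Marker genes of other cells moved with these sorts. Genes nearly absent from a sort pass the filter on low counts only through the other sort, where they are high. Their direction is then fixed by the filter, so the counts of markers that rose or fell are given as a description. In the 3 AireKO and the 3 KI/+ lymph node AGF+ libraries, 12 B cell markers summed to 303 to 333 and 324 to 388 CPM, against 716 to 1382 and 543 to 1016 CPM in AGF− libraries of the same genotypes. In KI/+ mice, 9 of the 12 fell and 1 rose in AGF+ cells, where 21.1% of all genes tested passed in either direction. The gene that rose was Spib, which gave 259 CPM of the sum in AGF+ and 122 CPM in AGF− cells of KI/+ mice. In AireKO mice Spib gave 223 CPM in AGF+ and 118.5 CPM in AGF− cells, so Spib was most of the AGF+ sums and little of the AGF− sums. Ms4a1 (CD20), a B cell surface protein, averaged 2.90 CPM in AGF+ and 69.5 CPM in AGF− cells of KI/+ mice. Ikzf3 is itself a transcript of B and T cells, and the part of such cells in its difference was not tested.

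T and NK cell markers, 15 in all, summed to 81.0 to 109 CPM in AireKO and 104 to 165 CPM in KI/+ AGF+ libraries, against 193 to 806 and 171 to 545 CPM in AGF− libraries of AireKO and KI/+ mice. In KI/+ mice 14 of 15 fell in AGF+ cells, where 21.1% of all genes passed. Some of these genes passed the filter on low counts only through AGF− cells. Ncr1 and Gzmb, for example, averaged 0 CPM in AGF+ and 28.0 and 9.37 CPM in AGF− cells of KI/+ mice. Their fall was fixed by the filter, so the count of 14 is a description and not a like comparison with all genes. Most of the AGF+ sum came from Cd8a and Cd4, which averaged 73.7 and 40.1 CPM in AGF+ and 50.9 and 109 CPM in AGF− cells. Cd3e averaged 2.83 CPM in AGF+ and 28.8 CPM in AGF− cells of KI/+ mice, and Nkg7 0.408 and 35.6 CPM. Monocyte and macrophage markers, 12 in all, summed to 262 to 565 and 406 to 530.1 CPM in AGF+ libraries of AireKO and KI/+ mice and to 2049 to 2867 and 2051 to 2241 CPM in AGF− libraries. In KI/+ mice 7 of 12 fell. Of 15 immediate early genes, a class known to rise when tissue is handled, 0 rose in AGF+ cells of either genotype, while 6 fell in AireKO and 2 in KI/+ mice, where 24.7% and 21.1% of all genes passed. In lymph node Klf2 differed in the same direction as the T, NK and monocyte markers. In bone marrow Klf2 was lower in KI/+ AGF+ cells than in total DC, whereas T and NK sums were higher (107 to 148 against 25.2 to 40.5 CPM). Monocyte and macrophage sums were lower there (129 to 230 against 1188 to 1715 CPM). The part of these cells and of handling in the Klf2 differences was not tested.

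Plasma cell markers, set beside Prdm1, summed to 334 to 416 CPM in AireKO and 344 to 403 CPM in KI/+ AGF+ libraries, against 803 to 1552 and 761 to 1214 CPM in AGF− libraries. Of 8 tested, 6 fell in KI/+ AGF+ cells, where 21.1% of all genes passed. Most of the sum came from Ighm, at 124 CPM in AGF+ and 604 CPM in AGF− cells of KI/+ mice, and Irf4, at 192 and 198.5 CPM. Jchain, the joining chain of secreted antibody, averaged 1.34 CPM in AGF+ and 33.5 CPM in AGF− cells of KI/+ mice, while Tnfrsf17 (BCMA) stayed at or below 0.253 CPM in every group. Their part in the Prdm1 difference was not tested.

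In bone marrow, 12 B cell markers summed to 415 to 522 CPM in AireKO AGF+ cells, 433 to 509.9 CPM in KI/+ AGF+ cells and 54.0 to 81.3 CPM in total DC, the same direction as Ikzf3 there. Of 10 tested, 8 rose and 2 fell in AGF+ cells, where 44.4% of all genes passed. Spib gave 236 CPM of that sum in KI/+ AGF+ cells, Cd79b averaged 109.9 CPM in KI/+ AGF+ cells and 20.8 CPM in total DC, and Blk, a B cell kinase, 98.9 and 5.18 CPM, while Cd79a and Ms4a1 averaged at most 3.94 CPM in bone marrow AGF+ cells. T and NK cell markers summed to 122 to 163, 107 to 148 and 25.2 to 40.5 CPM in AireKO AGF+, KI/+ AGF+ and total DC libraries. Gzmb (granzyme B) averaged 106 and 66.3 CPM of that sum in AireKO and KI/+ AGF+ cells and 15.2 CPM in total DC, while Cd3e averaged at most 0.368 CPM in bone marrow. Markers of plasmacytoid dendritic cells, 8 in all, summed to 1408 to 1517, 1415 to 1580 and 605 to 747 CPM in AireKO AGF+, KI/+ AGF+ and total DC libraries. Of these, 6 rose and 0 fell in KI/+ AGF+ cells over total DC. The part of B, T, NK and plasmacytoid dendritic cells in the bone marrow difference of Ikzf3 was not tested.

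For Ehf, 22 epithelial genes summed to 187 to 202 CPM in AireKO and 192 to 268 CPM in KI/+ lymph node AGF+ libraries. The sums in AGF− libraries were 124 to 154 and 155 to 181 CPM, a direction opposite to that of Ehf. Most of each sum came from Spint1 and Spint2. In KI/+ mice they averaged 56.2 and 140 CPM in AGF+ and 25.5 and 106 CPM in AGF− cells. In AireKO mice they averaged 56.7 and 116 CPM in AGF+ and 30.45 and 71.8 CPM in AGF− cells. Like Ehf, Cdh1 and Epcam were higher in AGF− cells, at 16.8 and 6.55 CPM against 2.68 and 4.36 CPM in AGF+ cells of KI/+ mice. Cldn3 and Prom1 were at 0 in all 4 lymph node groups, Krt8 and Krt18 averaged at most 0.597 and 2.02 CPM in any group, and Epcam averaged 3.20 to 6.55 CPM in the lymph node groups. Markers of mature Ccr7+ dendritic cells, 10 in all, summed to 1764, 3855 and 2810 CPM in AireKO AGF− libraries, where Ehf was 24.5, 48.2 and 23.98 CPM. In KI/+ AGF− libraries they summed to 4914, 4353 and 3669 CPM, where Ehf ran in the opposite order, at 57.0, 59.1 and 66.6 CPM. The Pearson correlation of Ehf with these sums was 0.840 over 6 lymph node AGF− libraries and 0.758 over 6 AGF+ libraries. Over all 21 libraries it was −0.689. The median difference of these markers, AireKO over KI/+ cells, was −0.62 in AGF− and −0.32 in AGF+ lymph node cells on the log2 scale, with 0 of 10 past adjusted p of 0.05. Their part in the Ehf difference between genotypes was not tested.

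**Figure D4:**
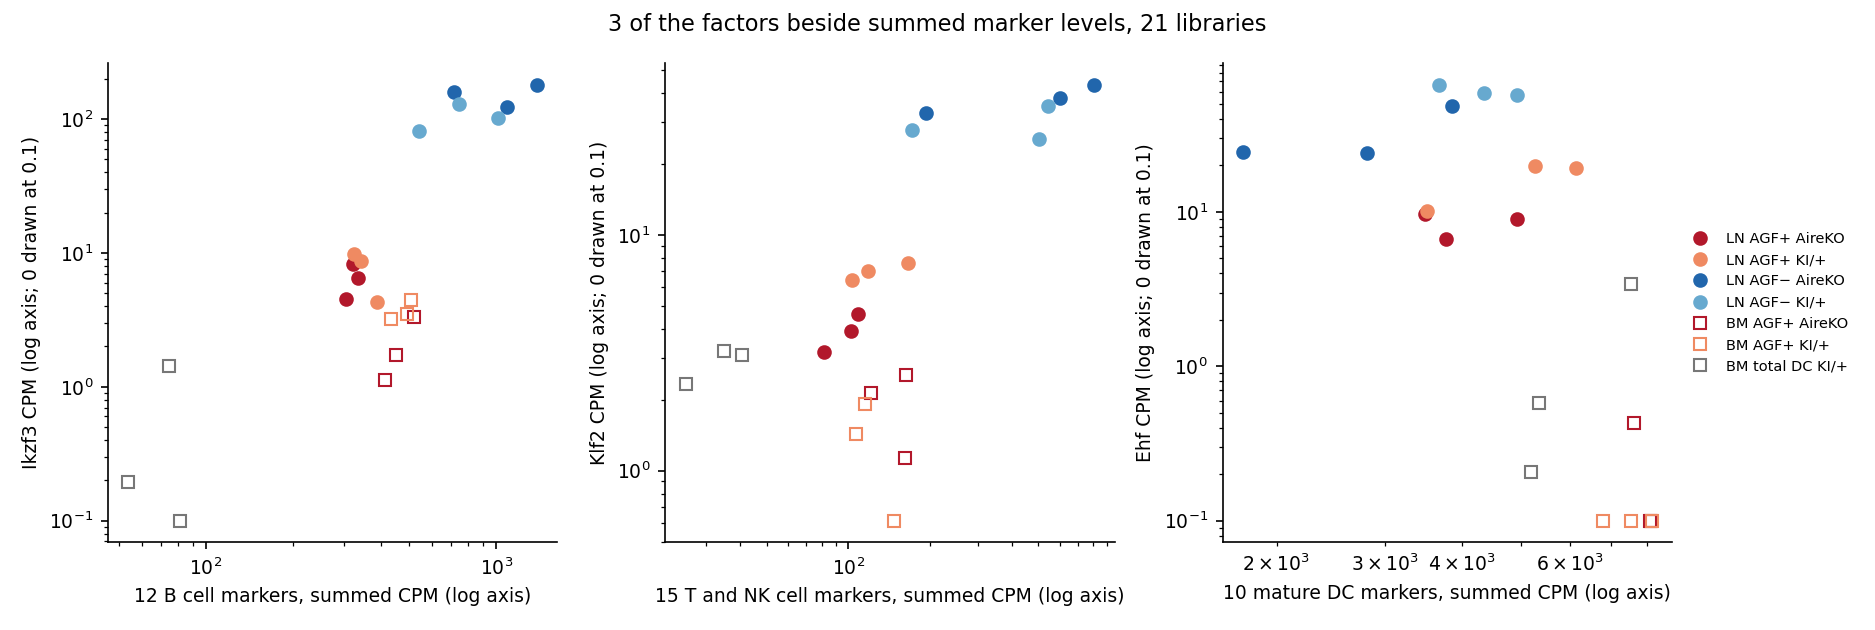
Left, Ikzf3 against summed B cell markers; middle, Klf2 against summed T and NK cell markers; right, Ehf against summed mature dendritic cell markers, all in CPM on log axes, 1 point per library, with levels of 0 drawn at 0.1. Lymph node AGF− libraries, in blue, stand at the upper right of the left and middle panels, with B cell sums of 543 to 1382 CPM. In KI/+ lymph node AGF+ cells, Spib gives on average 259 CPM of the B cell sum. Cd8a and Cd4 give 73.7 and 40.1 CPM of the T and NK cell sum there.

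Within their families, Ikzf3, Klf2, Prdm1 and Ehf all stood higher in the order of levels in lymph node AGF− than in AGF+ cells. Per exon length, Ikzf3 was the second of 5 Ikaros genes in lymph node AGF− cells, at 17.7 and 11.96 RPKM (CPM per kilobase of exon) in AireKO and KI/+ mice, behind Ikzf1 (Ikaros) at 59.4 and 48.7 RPKM. It was the fourth in lymph node AGF+ cells, at 0.731 and 0.869 RPKM, and the last in all bone marrow groups. Klf2 was the second of 17 KLF genes in AireKO and the third in KI/+ AGF− cells, at 20.6 and 15.98 RPKM, and the ninth and seventh in AGF+ cells, at 2.12 and 3.79 RPKM. Klf6 led that family in every group, at 35.3 to 82.0 RPKM.

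Prdm1 was the fifth of 15 PRDM genes in lymph node AGF+ cells (4.27 and 3.99 RPKM in AireKO and KI/+ mice) and the third in AGF− cells (7.46 and 9.40 RPKM). In bone marrow it had 16.1 and 14.04 RPKM in AireKO and KI/+ AGF+ cells and 15.5 RPKM in total DC. Prdm2 led in every group. Ehf was never among the first 10 of 26 ETS genes, with 5.78 and 10.9 RPKM in AireKO and KI/+ AGF− cells and 1.52 and 2.93 RPKM in AGF+ cells. Nfil3 averaged 154 and 153 RPKM in AireKO and KI/+ bone marrow AGF+ cells, against 4.86 and 6.58 RPKM in lymph node AGF+ cells.

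**Figure D5:**
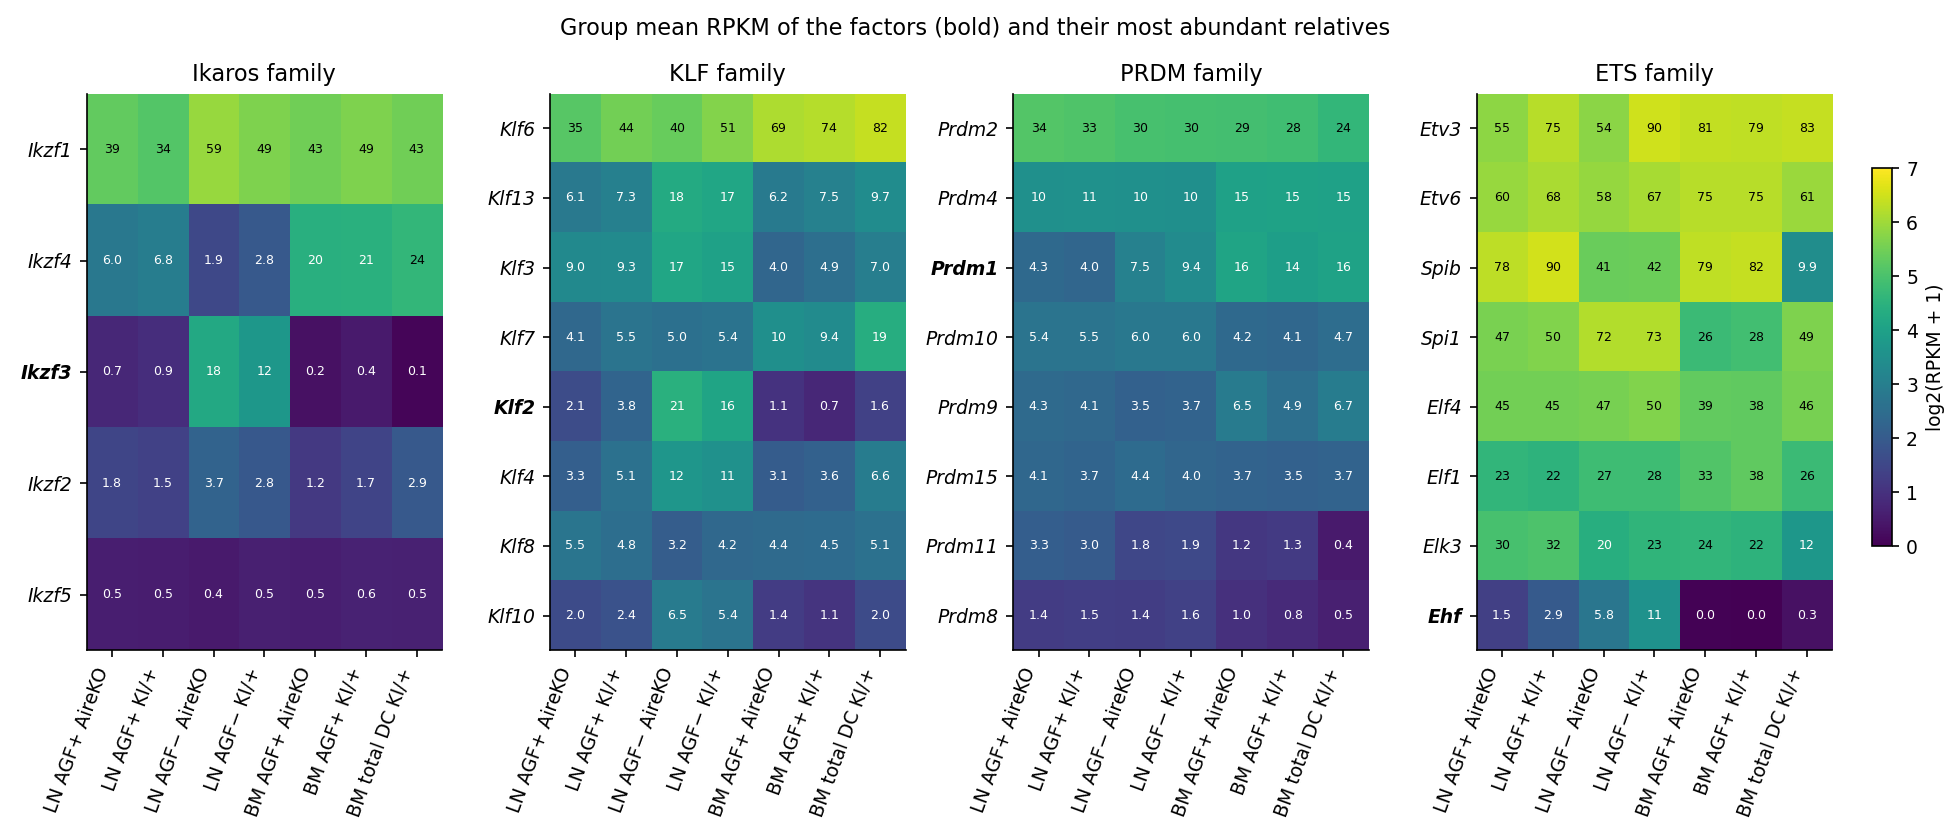
Group mean RPKM (printed in each cell, colour log2 of RPKM + 1) of the Ikaros, KLF, PRDM and ETS factors described here, in bold, and their most abundant relatives. Ikzf3 and Klf2 are bright in the lymph node AGF− columns, at 18 and 12 and at 21 and 16, and dark elsewhere.

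Relatives of the factors were read in the lymph node sorts of KI/+ mice, where 21.1% of all genes tested passed an adjusted p of 0.05 by edgeR's quasi-likelihood test with Benjamini-Hochberg adjustment. Of 4 other Ikaros genes, 1 rose and 1 fell in AGF+ cells. Ikzf4 (Eos) averaged 41.0 CPM in AGF+ and 17.1 CPM in AGF− cells (1.26 ± 0.33, adjusted p = 0.0136), and Ikzf1 197 and 282 CPM (−0.52 ± 0.14, adjusted p = 0.0156). The sign for Ikzf4 was opposite to that for Ikzf3. In AireKO mice 1 rose and 2 fell, where 24.7% of genes passed, and in bone marrow Ikzf2 (Helios) fell (−0.74 ± 0.24), where 44.4% passed. That bone marrow call was lost without the libraries numbered 2 and with scaling by library size alone.

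Of 11 other KLF genes tested, 4 fell and 0 rose in KI/+ lymph node AGF+ cells, and 5 fell and 1 rose in AireKO. Klf13 averaged 54.6 CPM in AGF+ and 125 CPM in AGF− cells of KI/+ mice (−1.20 ± 0.21 by the edgeR fit, adjusted p = 0.00108). Klf4, a myeloid differentiation factor that instructs cDC2 cells in mice, averaged 15.7 and 32.6 CPM (−1.06 ± 0.23, adjusted p = 0.00516). Klf3 (−0.71 ± 0.15) and Klf10 (−1.15 ± 0.27) fell too. In bone marrow, where 44.4% of all genes passed, 4 rose and 5 fell of 12 tested, against 2 and 3 without the libraries numbered 2. They were led by Klf12 (35.8 CPM in AGF+ cells and 4.83 CPM in total DC).

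Of 18 ETS genes besides Ehf, 2 rose and 7 fell in KI/+ AGF+ cells, and the same numbers in AireKO. Etv5 averaged 5.23 CPM in AGF+ and 19.1 CPM in AGF− cells (−1.87 ± 0.22, edgeR adjusted p = 5.1e-05), Ets1, a lymphoid factor, 25.9 and 143 CPM (−2.47 ± 0.30), and Fli1 22.9 and 61.8 CPM (−1.43 ± 0.20). Spib, a factor of B cells and plasmacytoid dendritic cells, rose (259 CPM in AGF+ and 122 CPM in AGF− cells, 1.09 ± 0.22). In KI/+ mice the numbers were 1 and 4 without the libraries numbered 2. In bone marrow Etv5 fell (−3.24 ± 0.24), while Spib (3.07 ± 0.25) and Erg (4.67 ± 0.44) rose among 6 higher and 5 lower of 19, where 44.4% of all genes passed.

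No other PRDM gene fell in the lymph node sort. Of 9 tested, 3 rose in KI/+ AGF+ cells, among them Prdm16 (8.38 CPM in AGF+ and 2.40 CPM in AGF− cells, 1.81 ± 0.45, edgeR adjusted p = 0.0108) and Prdm11 (51.2 and 33.0 CPM, 0.63 ± 0.16). In AireKO mice 2 rose, and without the libraries numbered 2 the count in KI/+ mice was 1.

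Genes named in the literature as Klf2 targets are mostly receptors of lymphocyte trafficking. Of 9 tested, 6 fell and 0 rose in KI/+ lymph node AGF+ cells and likewise in AireKO, where 21.1% and 24.7% of all genes passed. The medians were −1.87 and −2.52 on the log2 scale against 0.01 over all genes in each. S1pr1, which guides egress, averaged 1.40 CPM in AGF+ and 20.8 CPM in AGF− cells of KI/+ mice (−3.85 ± 0.30, edgeR adjusted p = 2.64e-06). The chemokine receptor Cxcr3 averaged 0.619 and 14.8 CPM (−4.51 ± 0.60) and fell too. Both passed the filter on low counts only through AGF− cells, so their fall was fixed by it, and the counts and medians are a description. Both are also genes of T cells, whose summed markers fell in the same comparison. In bone marrow, where 44.4% of all genes passed, 1 rose and 3 fell of 8, with S1pr4 at 30.2 CPM in AGF+ cells and 10.8 CPM in total DC.

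Of 8 genes named with Ikzf3 in lymphocytes, 6 fell and 0 rose in each lymph node genotype, with medians of −1.44 in KI/+ and −1.81 in AireKO mice. Of all genes, 21.1% passed in KI/+ and 24.7% in AireKO mice. Cd79a, the B cell receptor chain, averaged 2.64 CPM in AGF+ and 32.6 CPM in AGF− cells of KI/+ mice (−3.65 ± 0.43, edgeR adjusted p = 5.1e-05). Bcl2, a survival gene, averaged 11.3 and 52.2 CPM (−2.19 ± 0.29), and Myc 4.54 and 25.1 CPM (−2.47 ± 0.34). Cd79a is in the B cell marker list as well.

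Of 13 genes named as repressed by Prdm1 or placed beside it, 2 rose and 6 fell in KI/+ AGF+ cells, and 2 rose and 7 fell in AireKO. The shares of all genes that passed there were 21.1% and 24.7%. Pax5, the B cell identity factor, averaged 4.08 CPM in AGF+ and 69.2 CPM in AGF− cells of KI/+ mice (−4.13 ± 0.50, edgeR adjusted p = 6.6e-05). Tcf7 rose (318 and 127 CPM, 1.32 ± 0.26), as did Spib. Pax5 and Spib are in the B cell marker list as well. In bone marrow, where Prdm1 overlapped between sorts and 44.4% of all genes passed, 5 rose and 5 fell of 12. Pax5 averaged 15.3 CPM in AGF+ cells and 0.541 CPM in total DC (4.77 ± 0.39), and Ctss (cathepsin S) 340 and 928 CPM (−1.44 ± 0.17).

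Of 22 epithelial genes named with Ehf, 9 could be tested in lymph node, where 21.1% of all genes passed in KI/+ and 24.7% in AireKO mice. In KI/+ AGF+ cells 3 rose and 1 fell: Cdh1 (E-cadherin) averaged 2.68 CPM in AGF+ and 16.8 CPM in AGF− cells (−2.61 ± 0.46, edgeR adjusted p = 0.00113), in the direction of Ehf. Spint1 (56.2 and 25.5 CPM), Trp63 (3.54 and 0.141 CPM) and Ovol1 (2.79 and 0.840 CPM) rose. Trp63 and Ovol1 passed the filter on low counts only through AGF+ cells, so their rise was fixed by it. In AireKO mice 4 rose and 2 fell, and in bone marrow, where 44.4% of all genes passed, 3 rose and 3 fell of 8.

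The circuit around Nfil3 in cDC1 and innate lymphoid development moved with the lymph node sort although Nfil3 overlapped there in KI/+ mice. Of 8 genes, 1 rose and 6 fell in KI/+ AGF+ cells and 2 rose and 6 fell in AireKO, where 21.1% and 24.7% of all genes passed. Zeb2 averaged 315 CPM in AGF+ and 594 CPM in AGF− cells of KI/+ mice (−0.92 ± 0.11, edgeR adjusted p = 6e-05), and Irf8, which cDC1 cells need, 144 and 443 CPM (−1.62 ± 0.32). Of 8 marker genes of cDC1 cells, 5 fell and 0 rose in the same comparison, and their part was not tested. Between tissues, where 54.2% of genes passed and Nfil3 was low in lymph node, Zeb2 was higher in KI/+ lymph node than in bone marrow AGF+ cells (315 and 89.9 CPM, 1.81 ± 0.19), while 2 of the 8 rose and 3 fell. The count was 1 and 2 without the libraries numbered 2.

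Circadian genes around Nfil3 parted the tissues. Of 17, 11 rose and 4 fell in KI/+ lymph node AGF+ cells against bone marrow AGF+ cells, where 54.2% of all genes passed. The median was 0.97 on the log2 scale against 0.04 over all genes. Ciart averaged 53.4 CPM in lymph node and 4.05 CPM in bone marrow AGF+ cells (3.72 ± 0.28, edgeR adjusted p = 1.44e-09), Nr1d2 (REV-ERB beta) 31.97 and 9.03 CPM (1.82 ± 0.18), Bhlhe40 144 and 728 CPM (−2.34 ± 0.20) and Rora 16.3 and 59.1 CPM (−1.86 ± 0.23). The sorts of KI/+ lymph node, where 21.1% of all genes passed, called 1 higher and 3 lower, or 3 and 5 with the replicate number as a block. The sources used here do not give the hour of collection, and the tissues differ in gate as well.

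Of 30 transcription factors of dendritic cells, 3 rose and 12 fell in KI/+ lymph node AGF+ cells (3 and 6 without the libraries numbered 2), and 5 rose and 13 fell in AireKO. The shares of all genes that passed were 21.1% in KI/+ and 24.7% in AireKO mice. None of the genes of these lists passed the test between genotypes in any cell type. Scaling by library size alone moved the median of all genes by 0.12 on the log2 scale in the bone marrow sorts and by 0.14 to 0.23 between tissues, and turned the direction of 0 called genes of these lists. The comparisons share libraries (KI/+ AGF+ cells stand in the sort, genotype and tissue comparisons alike), so their lists are given side by side only.

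Genes with the most similar profile were sought among 9411 genes by Pearson correlation of log2 CPM over all 21 libraries, as a description, since these libraries share 2 tissues and 3 sorts. For Nfil3 they were Nfkb1 (r = 0.987), Rab44 (0.987), Pkib (0.985) and Pcyt1a (0.984). For Ikzf3 they were Grap2 (0.955), Cmah (0.952), Cacna1e (0.951), Cr2 (0.947), the complement receptor of B cells, and Prkd2 (0.939). For Klf2 they were Dusp7 (0.962), Ucp2 (0.959), Zfp36l2 (0.958) and Cdk2ap2 (0.952).

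For Prdm1 they were Cst3 (r = 0.954), Vim (0.952), Hspa8 (0.944) and Arpc4 (0.937), and for Ehf Sh2b3 (0.973), Pid1 (0.972), Stom (0.971), Nxpe4 (0.968) and Igsf6 (0.967). These names depend on the measure: with Spearman's rho, 0 of the 5 most similar genes of Nfil3, of Ikzf3 and of Klf2 and 1 of the 5 of Prdm1 and of Ehf came up again. Among the 5 factors themselves, Ikzf3 and Klf2 ran together (r = 0.890 over 21 libraries), as did Klf2 and Ehf (0.890) and Nfil3 and Prdm1 (0.830), while Nfil3 and Ehf ran in opposite directions (−0.902).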

How the data were processed

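Total RNA (1.0 ng per library) of 21 samples was made into Ovation SoLo libraries and sequenced as 150 bp pairs, per the labels' protocols. The submitters' processing notes name HTSeq 0.11.2, edgeR 3.38.1, STAR 2.7.3a, fastp 0.20.0, Picard 2.21.1, SAMtools 1.9 and mm10/GRCm38. The authors deposited raw counts per gene, 55471 genes by 21 libraries, and 241 of them with no symbol held 0.0139% of counts. The sources used here do not say whether counting used strand, so reads of antisense genes cannot be told apart. The factors and gene lists were chosen with earlier results of these data known.

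Counts were tested with edgeR 4.0.16 (quasi-likelihood, TMM scaling, filterByExpr, R 4.3.3) over the 12 lymph node, the 9 bone marrow or, between tissues, all 21 libraries. P-values were adjusted over all genes tested (Benjamini-Hochberg). DESeq2 1.42.0 and limma 3.58.1 voom were alternatives. CPM used TMM library sizes, log2 CPM a prior count of 2, RPKM the exon length of GENCODE vM21. The fits were checked on simulated data in which scarce genes were left unchanged. That check therefore says nothing of factors as scarce as Ikzf3, Klf2 and Ehf in bone marrow. Figures used matplotlib 3.10.9.

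The differences of the factors between tissues had been planned as tests and are given as a description, since the factors were chosen from their levels over all 7 groups. Named were the 5 factors, Aire, in each list up to 4 genes with the smallest adjusted p under 0.05, and for each factor the 5 genes with the highest correlation, among those averaging a log2 CPM of at least 3. Some genes that this rule selects are not reported here.

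Replicates share numbers across groups. Same-numbered libraries deviated together in every comparison within a tissue (correlations of deviations from the group means of 0.188 to 0.591 over genes), but not in each of the AGF+ comparisons between tissues (lowest 0.0296). The libraries numbered 2 also share the Xist and Y-linked pattern. Each deviation is taken from the mean of its group, so a shift shared by the libraries numbered 2 enters the correlations of the other numbers too. The correlations therefore cannot separate pairing from that pattern.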

Additional observations from a re-analysis of the deposited data

Results flagged for a closer look

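Ikzf3 moved in opposite directions between the sorts of the 2 tissues. In bone marrow every KI/+ AGF+ library lay above every total DC library, with a fitted difference of 2.72 on the log2 scale. In lymph node every AGF+ library lay below every AGF− library, at −4.61 in AireKO and −3.80 in KI/+ mice on the log2 scale. The difference between the tissues was not tested. The bone marrow value rests on 58 reads in AGF+ cells and 8 reads in total DC, and the bone marrow sorts also differ in gate.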

How the results depend on the processing

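For the 5 factors between genotypes, 312 of 328 alternatives over 19 differences kept direction and side of the threshold. In lymph node AGF+ cells, Ehf passed with no filter on low counts (−0.95, adjusted p = 0.00921). In AGF− cells it passed with no filter (−0.93) and without AireKO replicate 2 (−1.35). Small differences changed sign: Prdm1 in lymph node AGF+ cells with limma voom (−0.27) and between −0.45 and 0.31 with 1 library left out, Nfil3 in bone marrow with library size alone (−0.0031) and between −0.076 and 0.10 with 1 left out, and the difference between tissues in the genotype effect on Prdm1 without the libraries numbered 2 (0.014) and between −0.65 and 0.13 with 1 left out. The KI/+ lymph node sort difference of Nfil3 ran between −0.090 and 0.32 with 1 library left out. The causes were not tested. Of the 449 alternatives over sort and tissue differences of the factors, 431 stayed within the replicate spread. Of 330 counts over the gene lists, a check added after seeing the data, 307 stayed within 1.5 times.

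With no filter on low counts, the genotype calls over all genes were 97 in lymph node AGF+, 270 in AGF− and 26 in bone marrow AGF+ cells and 17 for the difference between tissues in the genotype effect, against 2, 1, 2 and 0. DESeq2 called 4 and 3 genes in lymph node AGF+ and AGF− cells, and the fit of only the groups compared 0 in AGF− cells. With the replicate number as a block, the calls were 4 and 2 in lymph node AGF+ and AGF− cells, and no call of the 5 factors changed (Klf2 in AGF+ cells, adjusted p = 0.710). Leaving out 1 library gave 2 to 7 calls in AGF+ cells, the most without KI/+ replicate 2, and 1 to 89 in AGF− cells, the most without AireKO replicate 2. Without the libraries numbered 2 there was 1 call between genotypes in bone marrow, and 1942 between the KI/+ lymph node sorts and 3858 between the bone marrow sorts, against 3349 and 6881. Library size alone called 4241 higher and 2642 lower in the bone marrow sorts, against 3531 and 3350, and between KI/+ AGF+ cells of the tissues 5798 and 3882, against 4694 and 4671. Groups of 3 at a depth of 4164451 to 6055097 counts limit what can be seen of Ikzf3, Klf2 and Ehf in bone marrow.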
